A study of Drosophila melanogaster with 2 samples.

Results

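The Dpr and DIP genes are 32 protein-coding genes of Drosophila melanogaster, 21 Dpr genes whose symbol is dpr followed by a number and 11 DIP genes whose symbol is DIP- followed by a Greek letter. They were picked by symbol from the dm6 annotation, which holds 18164 genes on the 6 arms used, 13945 of them protein-coding. This rule reads the symbol alone. Genes with like symbols that do not follow this rule, such as DIP1, DIP2 and cDIP, are not among them. The peaks counted for a gene are those with a summit between 2 kb upstream of its most distal transcription start site (TSS) and its end, a stretch called the gene region. The number expected is the share of the peak list that a stretch of that length would hold if peaks were spread evenly over the arms.

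Binding of Crol was mapped by chromatin immunoprecipitation followed by sequencing (ChIP-seq) in whole embryos aged 0 to 24 h of the strain crol-GFP, which carries Crol fused to eGFP. Crol, the product of crooked legs, is a zinc finger protein of the response to the steroid hormone ecdysone. Chromatin was sonicated to fragments of 200 to 800 bp and pulled down through the eGFP tag, although a separate label field names crol as the antibody. The data are 2 biological replicates of 1 group, with no second condition, and the control experiment named in the labels was not analysed here. The lists used here held 9211 peaks in the conservative list, which passed between the replicates, 10061 in the optimal list, 7813 for replicate 1 alone and 6138 for replicate 2 alone. The files used here hold no read counts, which leaves the depth unknown. All cells of the embryo were pooled, so binding in few cells and weak binding in many cannot be told apart.

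Dpr proteins are cell surface proteins with a pair of immunoglobulin domains. The name comes from dpr1, defective proboscis extension response, which is needed for aversion to salt. DIPs, the Dpr-interacting proteins, carry an extra immunoglobulin domain and bind Dprs on partner cells. Subsets of neurons express different Dprs and DIPs, and matching pairs act in the choice of synaptic partners, in synapse formation and in neuronal survival, for example in the medulla of the optic lobe and at larval neuromuscular junctions. Well studied pairs are DIP-alpha with Dpr6 and Dpr10, DIP-gamma with Dpr11 and DIP-delta with Dpr12.

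The sequences below are those around the summits of the strongest Dpr and DIP peaks, shown because they lie at the centre of the signal in this gene family and because many hold runs of G or C. Each has 101 bases of the dm6 plus strand with the summit in the middle, in the order of peak signal, which is the authors' peak height and is used here only within 1 list. Windows that touch an annotated untranslated region, such as those of the strongest dpr14 and dpr10 peaks, were passed over. Capitals mark matches, on either strand, to any of 6 words, which are the G run GGGGGG, the GA repeat GAGAGA, the CA repeat CACACA, the early embryonic word CAGGTA known from Zelda, and the E-box words CACGTG and then CAGCTG.
DIP-alpha at chrX:3555299-3555399: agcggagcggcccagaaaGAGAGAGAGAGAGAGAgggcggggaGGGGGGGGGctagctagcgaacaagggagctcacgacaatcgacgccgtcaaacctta
DIP-theta at chr2L:5635282-5635382: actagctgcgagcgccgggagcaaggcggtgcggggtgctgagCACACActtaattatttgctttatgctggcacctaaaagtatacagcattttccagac
DIP-alpha at chrX:3530880-3530980: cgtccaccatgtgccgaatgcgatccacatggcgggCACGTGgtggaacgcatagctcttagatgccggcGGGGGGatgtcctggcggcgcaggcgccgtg
dpr8 at chrX:14331898-14331998: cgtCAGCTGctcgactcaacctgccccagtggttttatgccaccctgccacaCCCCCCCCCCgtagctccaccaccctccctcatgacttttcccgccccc
DIP-gamma at chr3R:28951104-28951204: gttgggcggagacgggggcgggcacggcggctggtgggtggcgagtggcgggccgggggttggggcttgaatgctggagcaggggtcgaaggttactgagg
DIP-alpha at chrX:3548955-3549055: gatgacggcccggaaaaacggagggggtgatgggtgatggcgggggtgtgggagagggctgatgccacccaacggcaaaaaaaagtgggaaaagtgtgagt
DIP-eta at chr2L:5618060-5618160: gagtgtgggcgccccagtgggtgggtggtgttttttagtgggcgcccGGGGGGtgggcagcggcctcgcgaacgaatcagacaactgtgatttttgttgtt
dpr8 at chrX:14364430-14364530: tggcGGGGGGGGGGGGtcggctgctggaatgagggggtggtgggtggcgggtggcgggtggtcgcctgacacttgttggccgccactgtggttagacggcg

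Peaks were sparse in the Dpr and DIP genes. Their regions held 23 conservative peaks, against 113 expected from length, a ratio of 0.203. These were 0.250% of the list (exact Clopper-Pearson 95% interval 0.158 to 0.374, counting error only), while the regions took up 1.23% of the arms. The 21 Dpr genes held 12 peaks against 64.1 expected (ratio 0.187), and the 11 DIP genes held 11 against 48.9 (ratio 0.225). Of the 32 genes, 27 had fewer peaks than expected (84.4%), a share near the 74.6% of all protein-coding genes, most of which are short. Among the 18 members of at least 20 kb it was 17 (94.4%), against 53.6% of all protein-coding genes of that length. The longest member, DIP-lambda, alone accounted for 26.2 of the expected peaks. Without it the family held 23 against 86.9 (0.265), and without DIP-lambda and dpr21 23 against 78.2 (0.294). Without DIP-alpha, which gave 6 of the peaks, it held 17 against 108.5 (0.157).

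**Figure D1:**
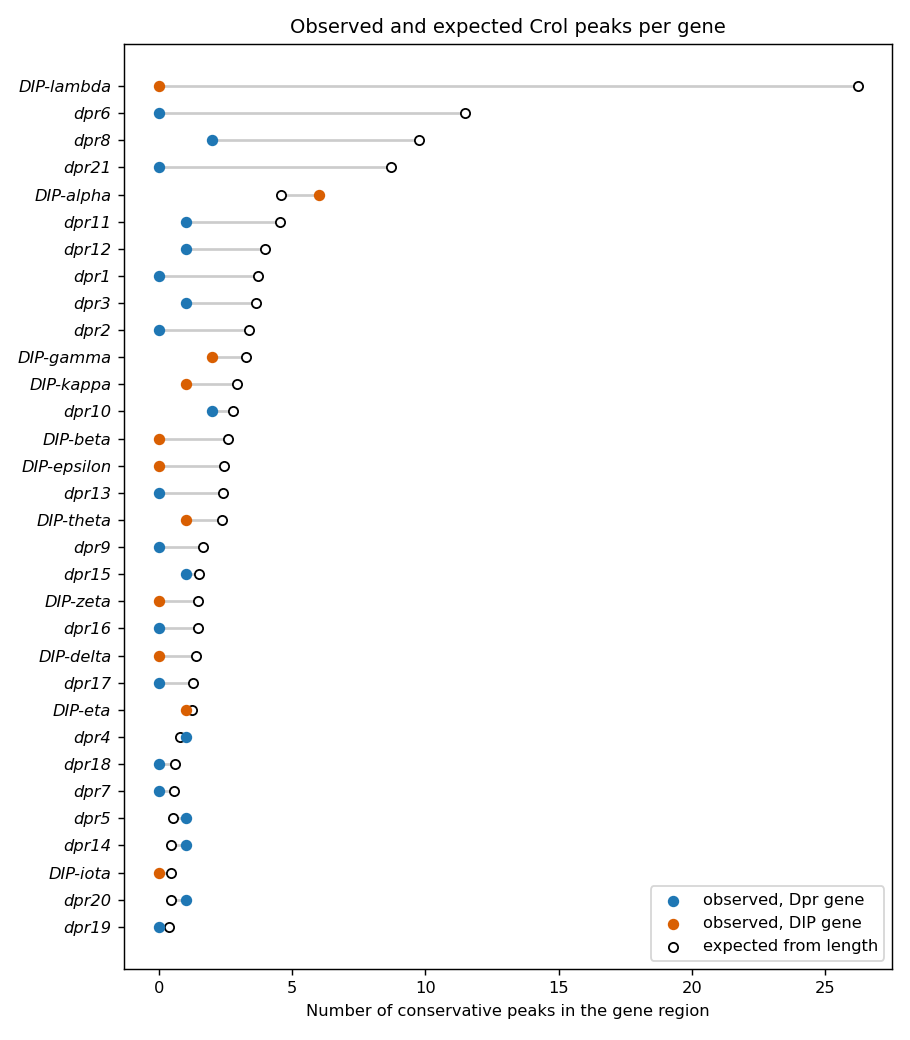
Conservative Crol peaks in each of the 32 gene regions (filled points, blue for Dpr and orange for DIP genes) and the number expected from length (open points), with genes ordered by the expected number. DIP-lambda and dpr6 had 0 peaks against 26.2 and 11.5 expected, and DIP-alpha had 6 against 4.57.

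No Dpr or DIP gene passed the test for more peaks than expected. In the exact Poisson test, with Benjamini-Hochberg adjustment over all 18164 genes, 0 of 32 were called for more peaks at an adjusted p below 0.05, where 0.727% of all genes were called (132 genes). None had an unadjusted exact p below 0.05 in that direction either, where 5.57% of all genes and 20.8% of the protein-coding genes of at least 20 kb had one. In the opposite direction 2 members were called, DIP-lambda and dpr6, where 0.0551% of all genes were called (10 genes). A deficit can only be called in a long gene. Of the 1013 protein-coding genes of at least 20 kb, 0.888% were called (9 genes), but most of the 1013 are too short for a call even with 0 peaks. The shortest region called, that of CG32816, has 156151 bp and 10.7 peaks expected. With 0 peaks dpr21 was not called, and only 51 coding genes are at least as long. Of the 18 coding genes at least as long as dpr6, 8 had no peak, and these 8 were called. At an unadjusted exact p below 0.05 for fewer peaks there were 6 members, DIP-lambda, dpr6, dpr21, dpr8, dpr1 and dpr2. All are among the 18 members of at least 20 kb, where 12.6% of the 1013 long coding genes had such a p. The median region was 51.1 kb in these 18 members and 39.0 kb in the 1013, so the shares are not matched for length. These p-values set a gene against an even spread of peaks, which real peaks do not have, and do not measure the spread between embryo collections.

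DIP-lambda (FBgn0267428, plus strand of 2R, 326768 to 705848) had 0 conservative peaks against 26.2 expected (exact Poisson adjusted p = 1.49e-08). It lies near the start of 2R, where the first conservative peak of the arm is at 5.68 Mb, 4978 kb beyond its region. Even the ranked list between replicates, which holds 87125 peaks before any threshold, had 3 peaks in it against 248 expected. Of its bases 32.2% are masked as repeats in the reference sequence, against a median of 16.9% for all 32 genes, and the part of repeats in the count was not tested. Farther along the same stretch of 2R without conservative peaks lies dpr21, with 0 peaks against 8.70 (exact Poisson adjusted p = 0.151), 0 ranked peaks against 82.3 and 27.4% masked bases. On chromosome 4, dpr7 had 0 peaks against 0.565, 0 ranked peaks and 37.4% masked bases, and it too lies before the first peak of its arm, at 0.385 Mb.

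The gene dpr6 (FBgn0040823, plus strand of 3L, 9974651 to 10139360) encodes a partner of DIP-alpha and is the longest member outside the start of 2R. It held 0 conservative peaks against 11.5 (exact Poisson adjusted p = 0.0237), and none in the optimal list or in the list of either replicate. It does not lie before the first peak of its arm, since 864 peaks of 3L come before it. Within 100 kb of its region lay 8 conservative peaks, and the nearest, in an intron of the neighbouring dpr10, is 40005 bp away. In the ranked list it had 35 peaks against 108 expected, and the strongest of these had a joint signal of 38.0, with 17.9 in replicate 1 and 18.2 in replicate 2. Its score, a rescaled measure of how well ranks repeat between replicates, was 411, where no thresholded list went below 830. With 19.5% masked bases dpr6 was close to the family median. Among the 18 protein-coding genes at least as long as dpr6, itself included, 8 had no peak, which were CG17684, DIP-lambda, Myo81F, Pzl, Snap25, dpr6, l(3)80Fg and lovit. Those other than dpr6 had more masked bases, 32.2% to 46.7%. They also held hardly any ranked peaks, 0 to 19 where 142 to 1281 were expected. Genes shorter than dpr6 were called too and differed from each other. CG32816 had 15.6% masked bases and 61 ranked peaks against 102 expected. For lncRNA:flam the values were 50.7% and 2 against 105. The call of dpr6 was lost in the lists of single replicates, which had 0 peaks there too, against 9.73 expected in that of replicate 1 (exact Poisson adjusted p = 0.120) and 7.64 in that of replicate 2 (adjusted p = 1). It was also lost with overlapping intervals merged, with 0 peaks against 10.6 (exact Poisson adjusted p = 0.0556).

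DIP-alpha (FBgn0052791, minus strand of X, 3507245 to 3571649) held the most peaks of the family. Its 6 conservative peaks stood against 4.57 expected, which did not pass (exact Poisson adjusted p = 1). The strongest, with a joint signal of 188, spanned X from 3555285 to 3555397 and had signals of 120 in replicate 1 and 67.2 in replicate 2. A second peak of 144 (81.5 in replicate 1 and 59.0 in replicate 2) lay 265 bp upstream of the inner TSS of DIP-alpha, which makes it the gene's promoter peak. The remaining 4 had joint signals of 125, 97.6, 96.3 and 72.6. Replicate 2 exceeded replicate 1 in the peaks of 96.3 (53.4 against 45.6) and 72.6 (45.6 against 29.4), and fell below it in the other 4. Apart from the promoter peak, the 5 peaks crowded into 9.03 kb of the second intron, which is 26.3 kb long, between 16.3 and 25.3 kb from the distal TSS. Neighbouring summits there were 704 to 4012 bp apart. The peak of 97.6 also lies at the promoter of the non-coding gene lncRNA:CR34335, and the nearest coding TSS of all 5 is that of ppk8.

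Of dpr6 and dpr10, the partner genes named above, dpr10 (FBgn0052057, minus strand of 3L, 10147454 to 10186108) was the one that held peaks. Its promoter peak, from 10185993 to 10186263 with the summit 33 bp upstream of the TSS, had a joint signal of 294, with 162 in replicate 1 and 135 in replicate 2, and ranked 1219 in the list. An intronic peak 6743 bp into the gene had 84.1 (47.4 in replicate 1 and 32.0 in replicate 2). Together these were 2 peaks against 2.80 expected. The pair of neighbours thus had a strong promoter peak at one gene, dpr10, and no thresholded peak at the other, dpr6.

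DIP-gamma (FBgn0039617, minus strand of 3R, 28925004 to 28970372) encodes the receptor of Dpr11 and its relatives Dpr15, Dpr16 and Dpr17. Its 2 peaks, against 3.26 expected, lay 1342 bp apart in the first intron, which has 41221 bp. Their joint signals were 134 (77.2 in replicate 1 and 58.8 in replicate 2) and 65.5 (35.0 and 31.8 in the same order). Of its partner genes, dpr11 had 1 peak of 82.4 in its first intron against 4.55 expected, and dpr15 had 1 of 72.6 in its second intron against 1.497. Neither dpr16 nor dpr17 had a peak, with 1.46 and 1.28 expected. A peak of 114.7 whose nearest coding TSS is that of dpr16 lay 334 bp outside the dpr16 region. DIP-delta had 0 peaks against 1.40, and its partner gene dpr12 had 1 of 85.2 in its first intron against 3.999, with 50.8 in replicate 1 and 33.0 in replicate 2.

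DIP-eta and DIP-theta are neighbours on 2L. DIP-eta (FBgn0031725, minus strand of 2L, 5601723 to 5617946) had a promoter peak 164 bp upstream of its TSS, with a joint signal of 101, 50.9 in replicate 1 and 48.3 in replicate 2, and this was its 1 peak against 1.25. DIP-theta (FBgn0051646, minus strand of 2L, 5626291 to 5658560) had 1 peak against 2.36, in its short eighth intron. It reached 146, with 56.8 in replicate 1 and 88.2 in replicate 2. DIP-kappa had 1 peak of 72.3 in its second intron against 2.92, 1523 bp from the TSS of the nested gene Gpo3. These 3 DIP genes thus had 1 peak each where 1.25 to 2.92 were expected.

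The strongest peak counted for the family lay upstream of dpr14 (FBgn0029974, minus strand of X, 7903704 to 7908286). It had a joint signal of 295, with 140 in replicate 1 and 150 in replicate 2, and ranked 1212 in the list. Its summit was 608 bp from the TSS of dpr14 but 37 bp from that of spidey, an enzyme gene of lipid metabolism, so by distance it is a promoter peak of spidey. Other short Dpr genes had a single peak upstream. The values were 87.7 at dpr20 (599 bp upstream), 85.0 at dpr4 (1098 bp) and 68.4 at dpr5 (1906 bp). A peak of 83.3 lay 287 bp outside the region of dpr4, and 1 of 63.5 lay 2154 bp outside that of dpr5.

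The long genes dpr8 and dpr3 held peaks, in numbers below those expected that did not pass the test. The 140.1 kb gene dpr8 (FBgn0052600, plus strand of X, 14322226 to 14462351) had 2 peaks against 9.78 (exact Poisson p = 0.00332, adjusted p = 1). The first, of 135 in the second intron, had 82.4 in replicate 1 and 48.5 in replicate 2, and the second, of 101 in the third intron, had 39.1 in replicate 1 and 62.4 in replicate 2. The replicates thus ordered these peaks in opposite ways. A peak of 63.9 at the dpr8 TSS entered the optimal list and the list of replicate 1 but not the conservative list. In dpr3, 1 intronic peak of 63.4 stood against 3.65 expected, the weakest of all 23.

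**Figure D2:**
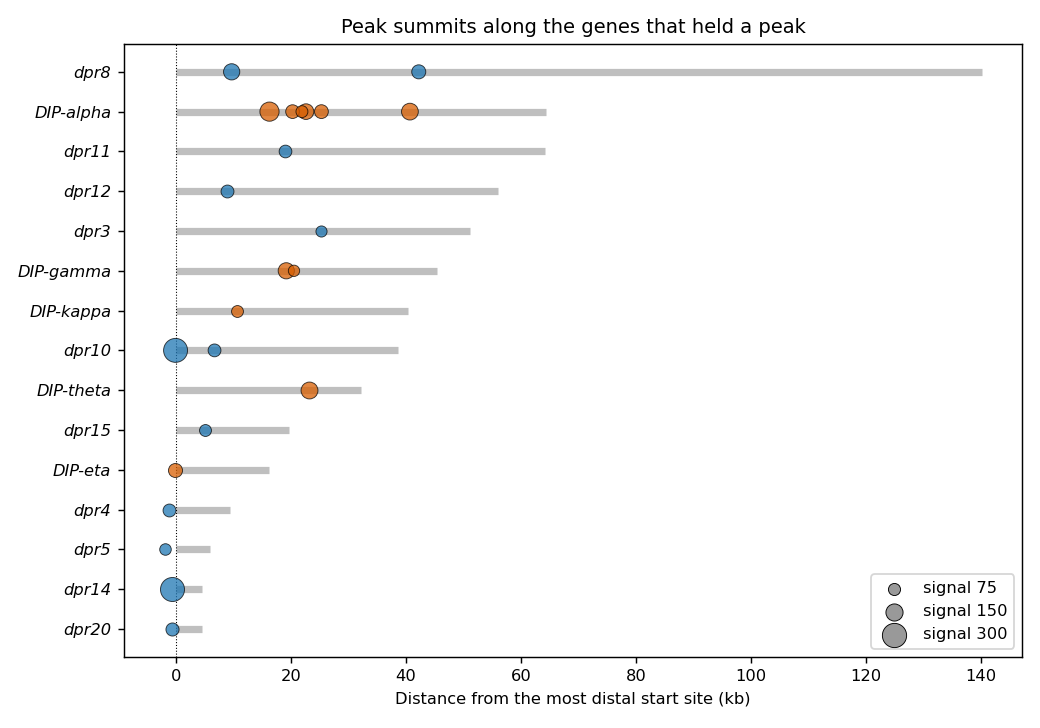
Summits of the 23 conservative peaks along the 15 Dpr (blue) and DIP (orange) genes that held a peak, as distance in kb from the most distal TSS, with the gene body in grey and the area of a point in proportion to the joint signal. The summits of DIP-alpha crowd between 16.3 and 25.3 kb, and those of dpr10 and DIP-eta at the start lie 33 and 164 bp upstream.

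No conservative peak was found for 17 of the 32 genes (53.1%), and none of these 17 had a peak in the optimal list or the list of either replicate. Besides DIP-lambda, dpr6, dpr21, dpr7, dpr16, dpr17 and DIP-delta they were DIP-beta, DIP-epsilon, DIP-iota, DIP-zeta, dpr1, dpr2, dpr9, dpr13, dpr18 and dpr19. Of the 18 members of at least 20 kb, 9 had none, against 25.6% of the 1013 protein-coding genes of that length (259 genes). The 18 long members held 17 peaks against 100.5 expected with a median ratio of 0.102, against a median of 0.892 in the other 995 long coding genes. Of the 14 shorter members 8 had none (57.1%), below the 75.2% of protein-coding genes under 20 kb. The share without a peak was thus above the background among the long members and below it among the short ones. The short members had a longer median region than coding genes under 20 kb, so their shares are not matched for length. Against length the short members were sparse too, with 6 peaks against 12.6 expected (ratio 0.476), where coding genes under 20 kb had 1.09. None of these differences was tested.

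Below the threshold, the genes without a conservative peak differed in how many ranked peaks they held. The 17 held 142 ranked peaks against 664 expected, with a median ratio of 0.227 and a highest joint signal per gene of 9.97 to 44.6. No ranked peak at all lay in DIP-zeta, dpr7, dpr17, dpr18 and dpr21. At or above their expected number of ranked peaks were dpr1 and DIP-iota. The founding gene dpr1 had 39 ranked peaks against 35.1 and 0 conservative peaks against 3.71 (exact Poisson p = 0.0244, adjusted p = 1). Its strongest ranked peak had 35.2, with 5.17 in replicate 1 and 24.6 in replicate 2. In dpr2 there were 20 ranked peaks against 32.0 and 0 conservative peaks against 3.38, and its strongest reached 44.6, with 16.4 in replicate 1 and 23.3 in replicate 2. A far stronger peak of 626, nearest to Tmem214, lay 1289 bp outside the dpr2 region. DIP-iota had 6 ranked peaks against 4.27. The remaining genes without a conservative peak were below their expected number, with 1 ranked peak in DIP-beta (24.5 expected), 9 in DIP-epsilon (23.1), 3 in DIP-delta (13.2), 2 in dpr9 (15.8), 12 in dpr13 (22.6), 10 in dpr16 (13.8) and 2 in dpr19 (3.73). Scores were compared only for the ranked peak with the highest joint signal in each gene. Among these, the score nearest to the lowest of the thresholded lists, 830, was 659, in DIP-delta, with a joint signal of 42.4. The weakest conservative peak of the family, in dpr3, had 841.

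Genes with a conservative peak also held many ranked ones. Their 15 regions had 516 against 406 expected, with a median ratio of 1.21 (0.141 to 2.12), and 11 of the 15 were at or above their expected number. The highest ratio was in dpr5, with 11 ranked peaks against 5.19, and the lowest in dpr15, with 2 against 14.2. In dpr8 125 ranked peaks stood against 92.5 expected beside 2 conservative ones against 9.78, and in dpr3 56 stood against 34.5 beside 1 against 3.65. Over all 32 genes the ranked ratio was 0.615, and 0.886 without DIP-lambda and dpr21, so the family stood closer to its length in weak peaks than in peaks past the threshold. Having a conservative peak puts a gene at 1 ranked peak at least, so the ratios of the 15 and the 17 are given as descriptions.

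**Figure D3:**
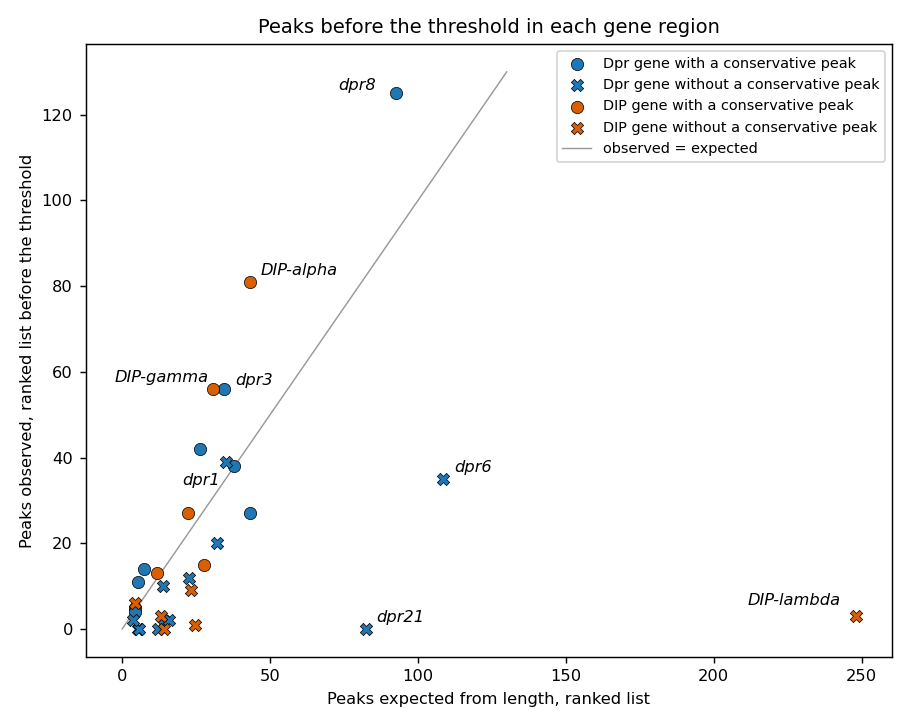
Peaks of the ranked list before the threshold in each gene region against the number expected from length, for Dpr (blue) and DIP (orange) genes with (circles) and without (crosses) a conservative peak, with a line of equality. DIP-lambda (3 against 248), dpr6 (35 against 108) and dpr21 (0 against 82.3) lie far below the line, while dpr1 (39 against 35.1) lies close to it without a conservative peak.

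Within the genes, peaks lay mostly deep in introns. Of the 23 summits 17 lay in an intron, 6 upstream and 0 in an exon. The intron was the first in 4 cases, the second in 10 and a later one in 3, and for 14 peaks it was longer than 20 kb. DIP-alpha gave 5 of the second-intron peaks, all in the same intron of 26.3 kb. Of the 23 summits, 16 were more than 5 kb from the nearest TSS of their own gene. By place over any gene, 65.2% of the Dpr and DIP peaks were intronic and 21.7% at a promoter, against 48.4% and 27.5% of the conservative list. These shares are not like for like, since the family's peaks lie in gene regions by the rule. The list holds peaks anywhere, 18.7% of them intergenic. A coding TSS nearest to the summit was the gene's own for 12 peaks and another gene's for 11. A promoter peak, with a summit within 500 bp of an own TSS, was found at 3 of the 32 genes (9.38%), which were DIP-alpha, DIP-eta and dpr10, against 15.5% of all protein-coding genes. Among the 18 members of at least 20 kb it was found at 2 (11.1%), against 38.4% of protein-coding genes of that length, which have a median of 2 annotated TSSs where the long members have 1.

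Most peaks of the family were lower than the median peak of the list. The median joint signal was 96.3 (range 63.4 to 295), against 113 in the whole list, and 8 of 23 were above the list's median. Without DIP-alpha the family's median was 85.2, and 5 of 17 peaks were above the list's median. In replicate 1 the median of the 23 was 49.6, against 64.5 for the list, and in replicate 2 it was 48.3, against 53.5. Replicate 1 was the higher in 14 of 23 peaks (60.9%), against 74.1% of the list. In the replicates' own thresholded lists 10 of 23 peaks (43.5%) overlapped a peak in both, against 57.1% of the list, and 8 (34.8%) overlapped a peak in neither, against 18.2%. These 8 were 1 each in dpr3, dpr5, dpr11, dpr15, dpr20, DIP-kappa, dpr10 and DIP-gamma. In dpr10 and DIP-gamma it was the weaker peak of the pair.

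**Figure D4:**
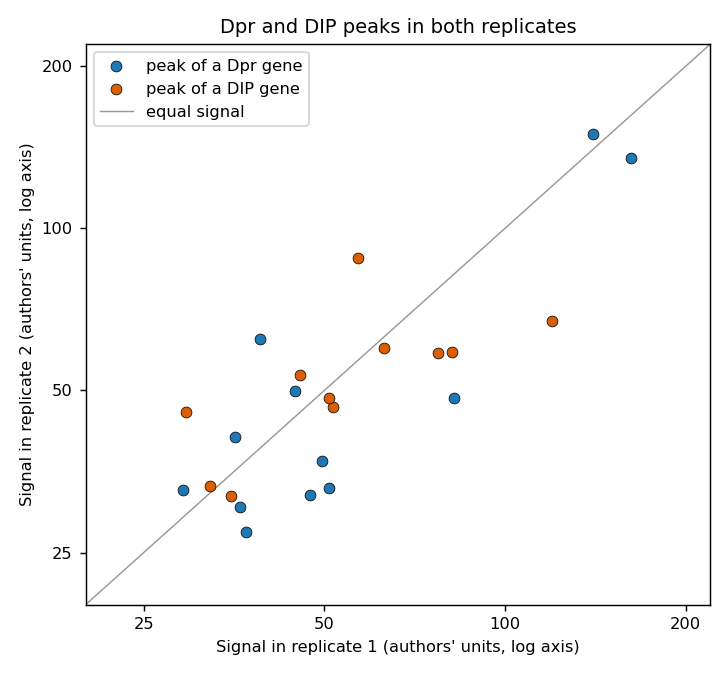
Signal of the 23 Dpr (blue) and DIP (orange) peaks in replicate 1 and replicate 2, in the authors' units on log axes, with a line of equal signal. The dpr14 and dpr10 promoter-side peaks stand apart above 130 in both replicates, and 14 of 23 points lie below the line.

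Runs of G or C were frequent near the summits. A match to GGGGGG on either strand lay within 50 bp of the summit in 12 of 23 peaks (52.2%, exact Clopper-Pearson 95% interval 30.6 to 73.2), against 30.3% of the list. This interval covers counting error only and takes the peaks as independent, while DIP-alpha, dpr8 and dpr10 each gave more than 1 match. A run of at least 5 G or C was found in 18 of 23 (78.3%), against 53.1%, and the median GC content of the 101 bases was 58.4%, against 53.5%. In the sequences above the longest runs were 12 and 10 bases, in the peaks of dpr8, and 9 in the strongest peak of DIP-alpha, which also holds a GAGAGA repeat. The strongest DIP-gamma peak, 72.3% GC, had no match to any of the 6 words and a longest run of 5. The other words were near the list's shares or rare. CACACA was in 4 of 23 (17.4%, against 13.9%), CAGCTG in 2 (8.70%, against 5.68%), GAGAGA in 1 (4.35%, against 10.1%), CACGTG in 1 (4.35%, against 1.35%) and CAGGTA in 0 (exact interval up to 14.8%), against 1.88%. The palindromes CACGTG and CAGCTG read the same on both strands. A match describes the letters in the window and is not a site of Crol.

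Other families of neuronal surface proteins, counted in the same way, were also below their expected numbers. The Dpr and DIP ratio of 0.203 stood beside 0.369 for the 22 Beat and Side genes, whose products bind each other in motor axon guidance (25 peaks against 67.8), and 0.634 for 25 other synaptic adhesion genes (76 against 119.8). A list of other Ig-domain genes, with cDIP, whose leucine-rich product binds many Dprs and DIPs, had 0.767 over 9 genes (22 against 28.7). In each of these 3 lists 0 genes were called in either direction by the exact Poisson test, with 1, 1 and 2 at an unadjusted exact p below 0.05 for more peaks and 6, 6 and 2 for fewer. Nearest to a call for fewer peaks was the synaptic adhesion gene Lar, with 0 against 10.1 (exact Poisson adjusted p = 0.0549). The genes with the most peaks were side-V (10), Ten-m (15), Ten-a (13) and ed (12), and cDIP had 0. The ratio was 1.14 in all coding genes of at least 20 kb, and the differences between the lists were not tested. Single genes carry much of these ratios, which were 0.231 for Beat and Side genes without side-V, 0.546 for the synaptic adhesion genes without Ten-m and 0.439 for the Ig-domain genes without ed. Genes without any peak made up 53.1% of the Dpr and DIP genes, 68.2% of the Beat and Side genes and 44.4% of the Ig-domain genes, and were 9 of the 25 synaptic adhesion genes. By that count and by the median ratio, which was 0 in both, the Dpr and DIP genes were not sparser than the Beat and Side genes.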

How the data were processed

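ChIP-seq peak lists of 2 replicates of 1 group on the dm6 build were used, per the labels. Lists before and after a threshold on the irreproducible discovery rate (IDR), which scores how well peak ranks repeat, were deposited by the authors, per the file notes. The deposited signal is the authors' peak height, with no scaling stated, and the deposited score is a rescaled IDR. Which aligner and peak caller made them is not given in the sources used here. Columns with replicate signals in the ranked list carry no name: 68281 of 87825 records of the first repeat replicate 1's own list and 0 replicate 2's, and 56437 of the second repeat replicate 2's and 0 replicate 1's.

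Genes came from Ensembl release 115, without transposable elements, on 2L, 2R, 3L, 3R, 4 and X. Summits were counted per gene region and tested by an exact one-sided Poisson test, once for more and once for fewer peaks, each adjusted by Benjamini-Hochberg over 18164 genes. Overlap needs 1 bp. Counting was tested on simulated lists. Every member was named, with in full those called, with a promoter peak or with 1 of the 10 strongest peaks. Members with no peak were named, but not all with their expected counts. Of other lists at most the 4 genes with the most peaks were named, beside cDIP and Lar. The members and lists were chosen with earlier results of these data known. Python 3.11.15, numpy 2.4.6, pandas 2.3.3, scipy 1.17.1 and matplotlib 3.10.9 were used. Sequences came from the RefSeq copy of dm6.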

Additional observations from a re-analysis of the deposited data

How the results depend on the processing

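The count of Dpr and DIP genes with more peaks than expected was 0 under every alternative run (other peak lists, either replicate alone, other gene regions, merged intervals, other expected counts). The count with fewer peaks, 2, fell to 1, DIP-lambda, without replicate 1, without replicate 2, with only conservative peaks above the median signal, the highest score alone and overlapping intervals merged. It was also 1, dpr6, with the expected count taken from the peak-bearing part of each arm, where DIP-lambda was left out by construction. This last alternative and those for fewer peaks were chosen after seeing the data. In each of the 5 settings that cost dpr6 its call it had 0 peaks, and fewer were expected from a shorter list. With the expected count set by sequence classes dpr21 was called too, and 29 of 32 members were called in no setting. The share of the list, 0.250%, was 0.179% to 0.244% in 1 replicate alone, and moved to 0.130% where the nearest coding TSS had to be the gene's own. Promoter peaks, at 3 genes, were at 3 to 4 in 1 replicate alone at 2 with a window of 250 bp (without DIP-alpha) or only peaks above the median signal (without DIP-eta), and at 5 with a window of 1000 bp, which added dpr14 and dpr20. The share with CAGCTG was 0% within 25 bp of the summit, where fewer bases were searched. With 23 peaks, shares carry wide intervals. No paired analysis was possible because there is 1 group.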

Other observations

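Some peaks of the family passed in 1 list without entering the conservative one. The optimal list added a peak of 76.9 in DIP-alpha and one of 59.6 in dpr8. Replicate 2's own list had overlapping peaks of 44.4 and 29.1 in dpr11 and a peak of 49.4 in dpr12, in that list's own signal.

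The family's gene regions on X, of 5 genes, held 9 peaks against 18.0 expected, and 3 against 13.4 without DIP-alpha. Those on 2R, of 5 genes, held 1 against 45.0, and 1 against 10.1 without DIP-lambda and dpr21, which lie before the first conservative peak of the arm. On 3R, 8 genes held 6 peaks against 15.1, with 0 promoter peaks.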
